A study of Mus musculus with 3 samples.

Results

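Cytokine transcripts of 10 genes were followed in mouse splenic T cells: Ltb, Lta, Tnf, Ifng, Il2, Il4, Il16, Flt3l, Csf1 and Mif. They were chosen by name as cytokine genes, with earlier results of these data known. All 10 matched 1 gene each among the 55536 genes of the deposited tables. The libraries were made from total RNA of T cells from the spleen of female B6CASTF1/J mice aged 66 days, a first-generation cross with C57BL/6 as the mother and CAST/EiJ as the father. The label text names CD3, the surface complex that T cells carry. No treatment is named, and an activation state is not given by the labels. The 3 libraries, replicates 1, 2 and 3 of 1 group, each used 300 ng of RNA, to which synthetic spike-in transcripts had been added. The labels number them as biological replicates with 3 biosample records, but under a common donor record, and nothing says that they came from separate animals, so SDs and p-values cover the spread among these libraries, which may be technical. As 1 group has no contrast, the comparisons are between genes, between transcript forms of a gene, and between libraries.

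Cytokines are secreted or membrane-bound proteins by which immune cells signal to each other. A T cell that has not met its antigen is known to hold the genes of its effector cytokines, such as interferon gamma, interleukin 2 and interleukin 4, at low mRNA levels until its receptor is triggered. Many such mRNAs carry copies of the pentamer ATTTA (written as in DNA) in the 3′ untranslated region, a sequence known as an AU-rich element, to which proteins that speed up or slow down mRNA decay can bind.

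The cells' label was checked first against fixed marker lists. All 15 T-cell markers and all 10 markers of resting T cells lay above 10 TPM (a transcript's share of all transcripts, scaled to 1000000, a level corrected for effective transcript length and depth) in every library. The resting markers summed to 2161 to 2261 TPM and were led by Tcf7 (389 ± 13.5 TPM), Klf2 (354 ± 23.5 TPM) and Satb1 (329 ± 17.5 TPM). The 10 activation markers summed to 179 to 198 TPM, and 9 of them reached 1 TPM in all libraries, led by Cd69 (73.8 ± 6.00 TPM), Myc (42.6 ± 1.97 TPM) and Nr4a1 (25.4 ± 1.90 TPM). Among them Mki67, a marker of dividing cells, differed between the libraries, at 6.27, 4.57 and 2.74 TPM (adjusted p = 0.0014 in the edgeR test of spread described with the members' spread), and 4 of the 10 had an unadjusted p under 0.05, against 5.75% of all genes tested. Errors are SDs over the 3 libraries (n = 3) throughout. Markers of other cells were low but present: summed TPM was 12.8 to 24.4 for 10 B-cell genes, 28.7 to 38.5 for 10 monocyte and macrophage genes, 23.1 to 30.1 for 8 natural killer genes and 9.22 to 15.2 for 8 dendritic cell genes. None of those 36 genes was at 0 in every library. Of 8 stroma and endothelium genes, Pecam1, which leukocytes also express, was the one above 1 TPM, and Ccl19 was at 0. Part of each cytokine value below may come from these other cells, which was not tested.

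The 10 cytokine transcripts fell into a high set of 4 genes and a low set of 6. Ltb, Mif, Flt3l and Il16 lay between 75.7 and 217 TPM in every library, and no other member reached 10 TPM. Together these 4 made up 95.6% ± 0.512 of the summed TPM of the 10 genes, and Ltb alone 42.9% ± 0.765. All members but Il4 and Il2, 8 of 10, were at 1 TPM or more in all 3 libraries, as were 44.7% of all protein-coding genes (9851 of 22028). Il4 passed as well, for 9 of 10, in the second quantification, with posterior mean TPM and with TPM rescaled to nuclear protein-coding genes. The median level of the 10 genes was 6.29 TPM, against 13.5 TPM for those expressed protein-coding genes.

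**Figure D1:**
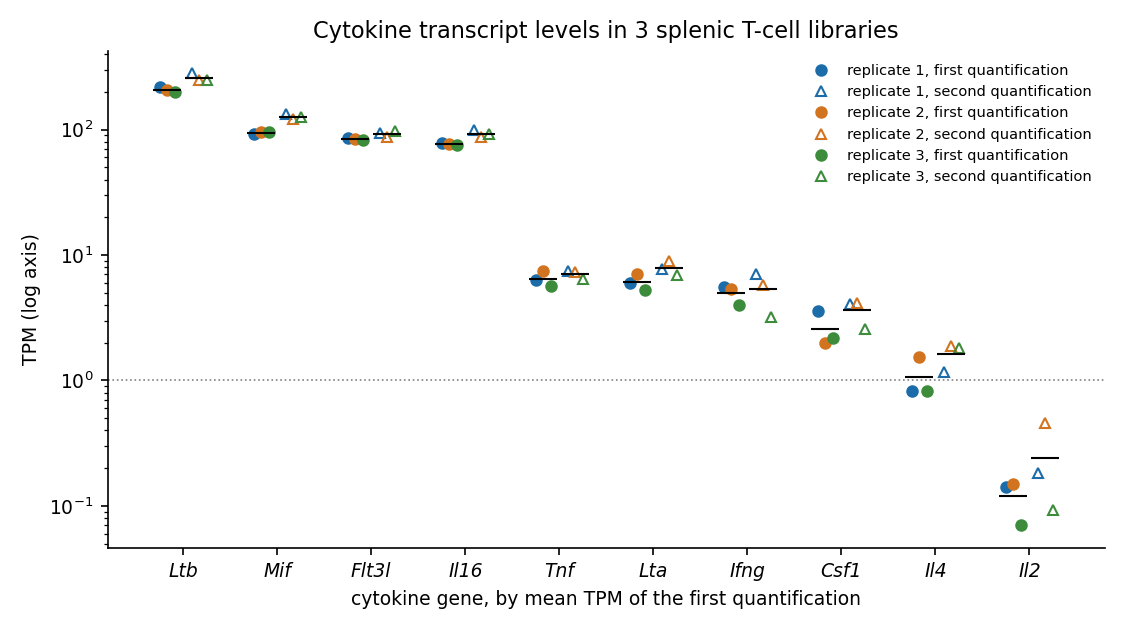
TPM of each cytokine gene on a log axis, with 1 point per library (blue, orange and green for replicates 1, 2 and 3), circles for the first quantification and open triangles for the second, and a black line at each mean. The dotted line marks 1 TPM; Ltb, Mif, Flt3l and Il16 stand above 75 TPM in all libraries and Il2 below 1 TPM.

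Ltb encodes lymphotoxin beta, a membrane protein that anchors lymphotoxin alpha at the cell surface and signals through the receptor Ltbr in the building of lymphoid tissue. The gene (ENSMUSG00000024399.5, mm10 chr17:35194439-35196320, plus strand) was at 217, 209 and 199 TPM in replicates 1, 2 and 3. It was the highest of the 10 in every library, above 97.9% of the expressed protein-coding genes. The protein-coding gene with the most similar values, by distance on the log2(TPM + 1) scale over the 3 libraries, was Foxp1, a transcription factor of resting T cells, at 220, 203 and 195 TPM. Almost all of the Ltb signal, 97.4% ± 0.518, was assigned to protein-coding transcripts, mainly Ltb-201 (202 ± 9.84 TPM).

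Mif encodes macrophage migration inhibitory factor, a small protein that many cell types make without stimulation. Its 3 values were 92.9, 95.8 and 95.3 TPM (ENSMUSG00000033307.7, chr10:75859353-75860240, minus strand). The most similar gene was Ppp2r1a, a scaffold subunit of protein phosphatase 2A, at 91.8, 94.8 and 93.5 TPM. Mif has processed pseudogenes whose reads could be confused with its own. Among those named for it, Mif-ps3 held 1 estimated count in replicate 1 and none in the others, Mif-ps7 held none, and the deposited posterior SD of the Mif count was 0.393% of that count. The second quantification gave 127 ± 5.05 TPM, 1.34 times the first, from fewer counts (549 to 587 against 660 to 727).

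Flt3l encodes the ligand of Flt3, a growth factor for dendritic cells and their progenitors. It was at 85.8, 83.6 and 83.4 TPM (ENSMUSG00000110206.1, chr7:45129788-45136432, minus strand). Its nearest gene in level was Slc20a1, a phosphate transporter, at 87.0, 84.5 and 82.9 TPM. Il16 encodes a precursor whose C-terminal part is released as interleukin 16, a chemoattractant for CD4+ cells. It was at 78.4, 77.0 and 75.7 TPM (ENSMUSG00000001741.12, chr7:83642825-83745726, minus strand). The 3 values of each of these genes lay within 1.04-fold of each other.

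Tnf, Lta, Ifng and Csf1 formed the upper part of the low set. Tnf, which encodes the inflammatory cytokine tumour necrosis factor, was at 6.37, 7.42 and 5.65 TPM from 167, 176 and 148 estimated counts (ENSMUSG00000024401.14, chr17:35199381-35202007, minus strand). Lta, for lymphotoxin alpha, was at 5.95, 7.03 and 5.31 TPM from 130, 139 and 116 counts (ENSMUSG00000024402.5, chr17:35203165-35205351, minus strand). For both genes replicate 2 was the highest library and replicate 3 the lowest. In the second quantification this held for Lta (7.67, 8.99 and 6.90 TPM), but Tnf was highest in replicate 1 (7.52, 7.32 and 6.45 TPM). The summed B-cell markers had the order of the first quantification, at 17.1, 24.4 and 12.8 TPM, with 5 of 10 at 1 TPM or more in all libraries and none at 0, and the part of B cells in the Tnf and Lta values was not tested. In such bulk libraries, fewer cells of a type and less RNA per cell cannot be told apart.

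Ifng encodes interferon gamma, the macrophage-activating cytokine of T helper 1, cytotoxic T and natural killer cells. It was at 5.59, 5.39 and 3.99 TPM from 105, 92.0 and 62.3 estimated counts (ENSMUSG00000055170.4, chr10:118441046-118445892, plus strand). Replicate 3 was lowest, and the same held in the second quantification, with 7.04, 5.80 and 3.18 TPM. Natural killer markers summed to 30.1, 23.1 and 25.3 TPM, but the genes of that list differed in their lowest library. Tyrobp and Klrb1c were lowest in replicate 2, and Eomes, at 8.39, 7.75 and 6.75 TPM, in replicate 3. The part of natural killer cells in the Ifng values was not tested. Mki67 was lowest in replicate 3, as Ifng was, while Cd69, the highest activation marker, was highest there (66.9, 76.7 and 77.8 TPM). All 10 activation markers together summed to 181, 198 and 179 TPM, and the part of activated or dividing cells was not tested. The 8 natural killer genes were led by Tyrobp, Eomes and Klrb1c at 8.26, 7.63 and 4.58 TPM, and 5 of them reached 1 TPM in all libraries.

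Csf1 encodes macrophage colony-stimulating factor. Its values were 3.58, 1.99 and 2.17 TPM from 123, 77 and 110 counts (ENSMUSG00000014599.10, chr3:107741048-107760469, minus strand). Replicate 1 was highest and replicate 2 lowest in both. In TPM replicate 1 was 1.80 times replicate 2, while the libraries held 7.29, 5.14 and 6.79 Csf1 counts per 1000000 gene counts. The effective length given to the gene was 2015, 2511 and 2970 bases, and the reads were assigned to other transcript entries in each library. Csf1-201, which shares its coding length of 552 codons with Csf1-203, took 20.9%, 50.8% and 62.8% of the Csf1 TPM. In the second quantification Csf1 was at 4.10, 4.18 and 2.58 TPM, so replicate 1 no longer exceeded replicate 2, and Csf1-201 took 49.1%, 17.4% and 61.4%. Neither the order of the libraries in TPM nor the transcript use of Csf1 was thus shared by the 2 quantifications.

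Il4 and Il2 rested on few counts. Il4, for the cytokine of T helper 2 cells, was at 0.83, 1.55 and 0.82 TPM (ENSMUSG00000000869.12, chr11:53602982-53618669, minus strand). That rested on 7, 11 and 6 counts, or 24 in all with an exact 95% Poisson interval of 15.4 to 35.7. The second quantification gave Il4 1.16, 1.90 and 1.82 TPM, 1.53 times the first on average, from 6, 9 and 8 counts. Il2, for the T-cell growth factor that activated T cells secrete, was at 0.14, 0.15 and 0.07 TPM (ENSMUSG00000027720.7, chr3:37120523-37125959, minus strand). Its estimated counts were 2.47, 2.49 and 1.29, each below the 3 counts that an observed 0 allows, and the posterior SD was 42.9% of the count. In the second quantification Il2 was at 0.182, 0.454 and 0.092 TPM, with 6.26 counts in replicate 2 and fewer than 3 in the others. Intervals and floors cover counting error only.

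The order of the levels, taken from the mean TPM of these same libraries, was the same in every library for all 9 neighbouring pairs. An exact two-sided sign-flip permutation test on log2(TPM + 1) gave p = 0.25 for each pair and an adjusted p of 0.25 over the 9 pairs, which is the smallest p that 3 libraries can give. The widest gap between neighbours was that between Il16 and Tnf, 3.39 ± 0.16 on the log2(TPM + 1) scale or 11.9-fold in mean TPM. The ranges over libraries overlapped for Tnf and Lta and for Lta and Ifng, although within each library the first of each pair was higher. Taken within each library, the differences were 0.08 ± 0.01 and 0.25 ± 0.15 on that scale. In the second quantification they were −0.13 ± 0.12 and 0.53 ± 0.40, so Tnf no longer exceeded Lta. Flt3l exceeded Il16 by 0.13 ± 0.01 on that scale, but in the second quantification by −0.002 ± 0.07, with 1 library of 3 positive. The order of that pair therefore depends on the quantification.

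Ltb, Tnf and Lta lie side by side on chromosome 17 within 10913 bases. The gap is 3060 bases between Ltb and Tnf and 1157 bases between Tnf and Lta, with Ltb on the plus strand and the others on the minus strand. The products of Ltb and Lta join into one surface heterotrimer, while lymphotoxin alpha alone forms a secreted homotrimer. Ltb TPM was 36.5, 29.7 and 37.5 times Lta TPM in replicates 1, 2 and 3. The mean ratio was 34.6 ± 4.27, and the difference on the log2(TPM + 1) scale was 4.89 ± 0.16 (higher in 3 of 3 libraries, exact permutation p = 0.25), against 4.88 ± 0.21 in the second quantification. Tnf and Lta were close to each other, with Tnf 1.07, 1.06 and 1.06 times Lta. That small excess of 0.08 ± 0.01 on the log2(TPM + 1) scale turned to −0.13 ± 0.12 in the second quantification, where Tnf was at 0.980, 0.813 and 0.934 times Lta.

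The low and the high genes differed in their 3′ untranslated regions. Searched on the sense strand of the highest coding transcript entry of each gene (GENCODE M21, GRCm38), all 6 genes below 10 TPM held at least 2 copies of ATTTA, and the 4 genes above 75 TPM held none. The 30-base stretch with most copies in each of the 6 genes is shown here with ATTTA in capitals, to show how close together the copies lie.
Tnf: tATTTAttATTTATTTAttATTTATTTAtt
Il2: tATTTATTTAaatATTTAactttaATTTAt
Ifng: ctATTTAttaatATTTAaaactATTTAtat
Lta: ATTTAtggagagaaaagttaagttATTTAt
Il4: tttttaatATTTAtatATTTAtaattcata
Csf1: aaggtcATTTAaatatctATTTAaaaaata
On GRCm38 they lie at chr17:35199677-35199706, chr3:37121039-37121068, chr10:118445333-118445362, chr17:35203407-35203436, chr11:53612490-53612519 and chr3:107741102-107741131 in that order, on the minus strand except for Ifng on the plus strand.

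In the Tnf stretch 5 copies overlap or follow each other closely. Over its whole 3′ untranslated region of 764 bases, Tnf held 8 copies of ATTTA, 8 of the longer TATTTAT and 5 of the nonamer TTATTTATT, each of which contains the shorter motif. Il2 held 7, 3 and 1 copies in 581 bases, Ifng 6, 4 and 0 in 631 bases, and Lta 3, 3 and 1 in 572 bases. Il4 held 2, 2 and 0 in 104 bases, and Csf1 4, 1 and 0 in 2111 bases. Csf1-203 and Csf1-204, other coding entries of Csf1, held no ATTTA in 259 and 145 bases. The place of Csf1 in the split thus depends on the entry searched, and its transcript use differed between the quantifications. Ltb-201, Mif-201, Flt3l-210 and Il16-203 held none of the 3 motifs in 156, 124, 183 and 1041 bases. The first 3 of those regions are short, against a median of 891 bases over 9706 expressed protein-coding genes, and a short region has fewer chances to hold a motif.

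ATTTA alone is common. Of those 9706 genes, 64.1% held at least 1 copy, 26.2% held TATTTAT and 6.88% held TTATTTATT. Per 1000 bases, Tnf held 10.5 copies, Ifng 9.51, Il2 12, Il4 19.2 and Lta 5.24, against a median of 1.17 over all those genes. Densities at or above that of Tnf were found in 1.08% of genes, and at or above that of Lta in 6.36%. Csf1, with 1.89 per 1000 bases, was not unusual, since 36% of genes had at least that density. Over these expressed genes the median level was 12.7 TPM for the 2547 genes with TATTTAT and 14.0 TPM for the 7159 without. That difference was not tested, and the set, limited to genes at 1 TPM or more in all libraries, holds neither Il2 nor Il4. The split within the 10 genes is a description, without a test, and no match says only that these letters are not in the annotated region.

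**Figure D2:**
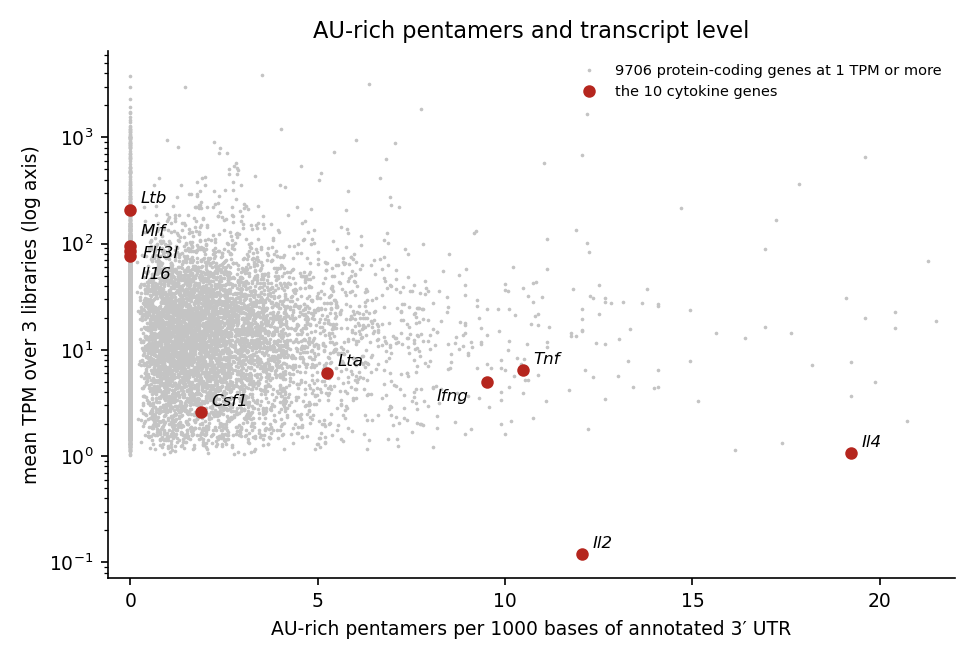
Mean TPM (log axis) against AU-rich pentamers per 1000 bases of annotated 3′ untranslated region, with 1 grey point for each of 9706 expressed protein-coding genes and red points for the 10 cytokine genes. Ltb, Mif, Flt3l and Il16 stand at 0 pentamers and above 75 TPM, and the other 6 lie between 1.89 and 19.2 pentamers and below 10 TPM; a few grey points lie beyond the right edge.

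Il16 was read almost wholly from the downstream part of the gene. The annotation holds a long coding entry, Il16-201, with 19 exons and 1322 codons, and a short one, Il16-203, with 7 exons and 624 codons, whose start lies 80028 bases downstream. Both end at the same stop codon, and all 1872 coding bases of the short entry lie in frame inside the long one. The long form is known from neurons and the short form from lymphocytes. The entries differ at the border shown here, where capitals mark the first bases they share and lower case the bases before them. In Il16-203 those bases belong to its own first exon (chr7:83655409-83655438, minus strand), and in Il16-201 to an upstream exon, from which the shared part is separated by an intron (chr7:83655409-83660812).
Il16-201: cccacctgcagccagGAAACCAGAGAGCTG
Il16-203: ctgtttacaccacagGAAACCAGAGAGCTG

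Il16-203 was at 64.8, 63.9 and 61.0 TPM and held 82.6%, 83.0% and 80.7% of the gene's TPM, a mean of 82.1% ± 1.26. Il16-201 was at 0.27, 0.35 and 0.32 TPM, or 0.407% ± 0.057, although 12 of its exons with 2126 bases lie before the start of the short entry and could have received reads of their own. The second quantification put it at 1.71%. Among coding entries alone, Il16-203 held 99.5% ± 0.069. The rest of the signal, 17.5% ± 1.25, went to Il16-204, a retained-intron entry with an exon of 1474 bases (chr7:83649576-83651049) of which 1305 lie in an intron of Il16-203. That share was 17.6% in the second quantification. Il16-205, Il16-202 and Il16-206, whose exons lie in the upstream part, were at 0 in all libraries. Genes that overlap Il16 were lower: Stard5 on the other strand was at 5.05 ± 0.672 TPM, the antisense gene 2310044K18Rik at 0.44 ± 0.392 TPM and the pseudogene Phgdh-ps1 at 1.34 ± 0.099 TPM.

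Flt3l was spread over many forms, without a leading one. Of its 13 transcript entries, 10 held more than 3% of the gene's TPM on average, and none reached 20% in any library in the first quantification. Retained-intron entries took 41.3% ± 2.98, protein-coding entries 32.6% ± 2.61, entries marked for nonsense-mediated decay 14.2% ± 1.89 and processed transcripts 12% ± 1.59. In the second quantification the shares were 38.3%, 37.8%, 10.2% and 13.6%. Coding entries thus held less than the other types together in both, whereas Ltb and Mif had 97.4% ± 0.518 and 95.1% ± 1.92 in coding entries. The total-RNA protocol can capture unspliced RNA, and its part in these shares was not tested.

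Flt3l-201, Flt3l-213 and Flt3l-210 differ in whether 1 intron (chr7:45132413-45133881, 1469 bases) is removed. Flt3l-201, with 232 codons, splices it out. Flt3l-213, a non-coding entry, keeps it whole. Flt3l-210, with 220 codons, reads 356 bases into it and ends there, so its protein has another C-terminal end. Alternative splicing of Flt3l is known to give membrane-bound and soluble forms of the ligand. The bases at that border are shown with the last 30 of the exon in lower case and what follows in capitals, which in Flt3l-210 opens with the GT of an unused splice donor and in Flt3l-213 is the same as in Flt3l-210. The Flt3l-210 stretch lies at chr7:45133852-45133911 and that of Flt3l-201 spans the intron (chr7:45132383-45133911), both on the minus strand.
Flt3l-201: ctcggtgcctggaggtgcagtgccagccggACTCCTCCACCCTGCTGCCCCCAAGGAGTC
Flt3l-210: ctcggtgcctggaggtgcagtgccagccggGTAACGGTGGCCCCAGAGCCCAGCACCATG

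Flt3l-213 took 18.5%, 14.4% and 16.2% of Flt3l TPM, a mean of 16.4% ± 2.06, and 20.4% in the second quantification. As it is the longest entry, with 2482 bases, it took 38.3% ± 3.75 of the gene's estimated counts. Flt3l-210 followed with 15.5% ± 2.29 (second quantification 11.8%) and was the highest coding entry, with 47.5% ± 3.09 of the coding TPM. Flt3l-207, a retained-intron entry that holds bases of a different intron, was at 15.5% ± 2.68 (8.75%). Flt3l-201 was at 5.11% ± 0.609 in the first quantification and at 0 in the second, while Flt3l-211, a coding entry of 255 codons that shares most of its exons, was at 8.15% ± 1.16 in the first and led the second with 21.5% ± 2.81. The 2 quantifications thus split the spliced coding entries differently, while both assigned TPM to the entries that hold the intron.

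A further entry overlaps Flt3l. Gm45713 is annotated as a read-through gene on the same strand that joins Flt3l to its neighbour Rpl13a, a ribosomal protein gene at 1913 ± 40.8 TPM. The first quantification listed Gm45713 at 0 in all libraries. The second gave it 16.2, 5.78 and 6.61 TPM, from 307, 110 and 132 estimated counts, while Flt3l itself stayed at 94.0, 87.1 and 97.3 TPM there. Reads of the 2 genes cannot be told apart where their exons are shared.

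**Figure D3:**
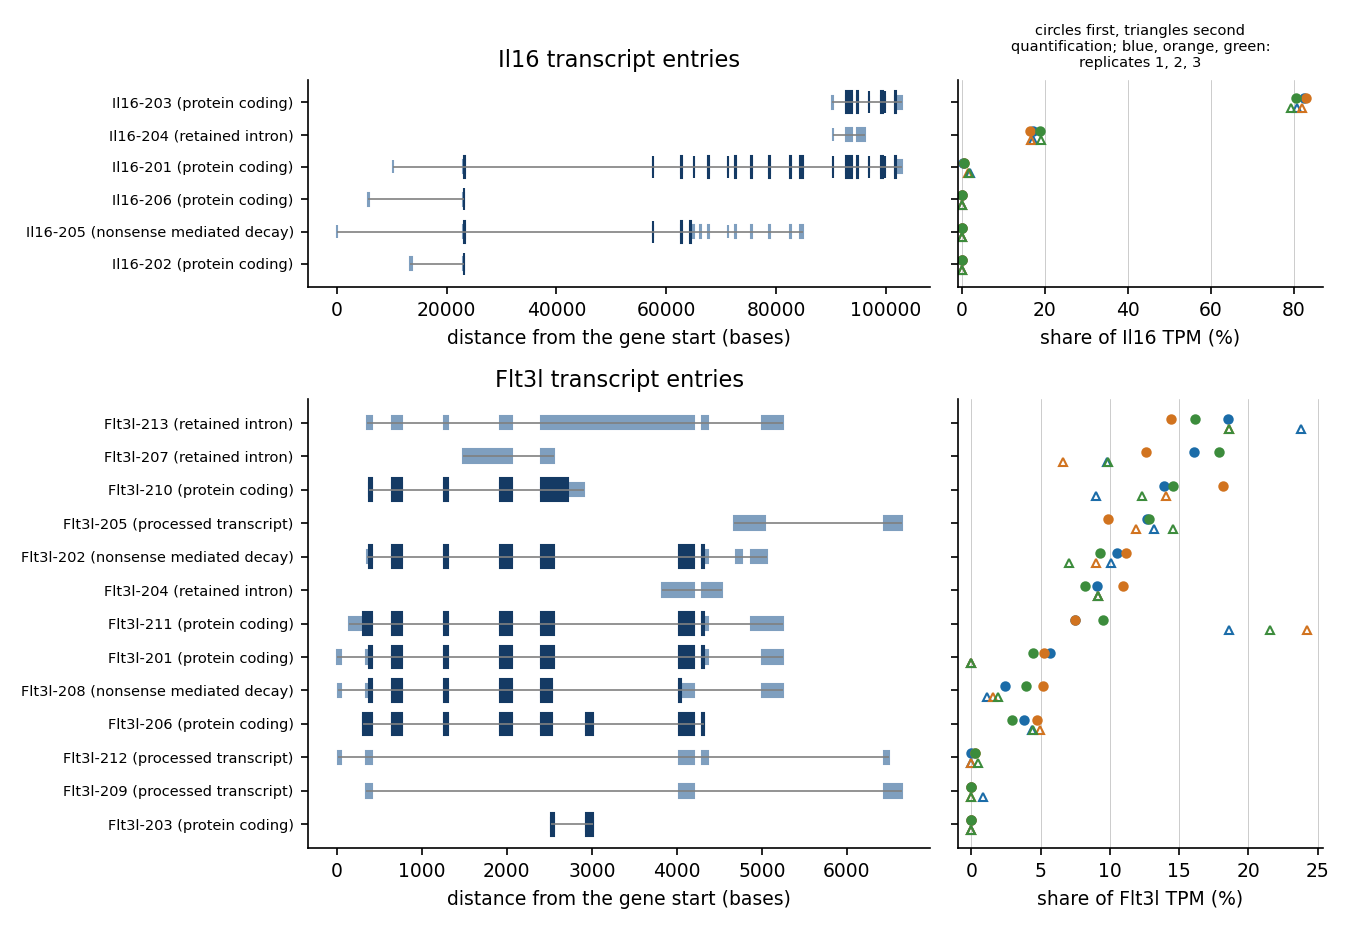
Left, exons (light) and coding parts (dark) of each Il16 and Flt3l transcript entry by distance from the gene start in bases, with thin lines for introns. Right, the share of the gene's TPM (%) of each entry, with 1 point per library and quantification (circles the first, triangles the second); Il16-203 stands near 80% in all, and no Flt3l entry exceeds 25%.

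Among the other members, Lta and Il2 have 1 annotated entry each, so all their TPM lay in it by construction. Tnf had all its TPM in Tnf-201 in every library, although a coding entry Tnf-202 is annotated as well. By posterior mean TPM, Tnf-202 took 6.09%, 8.41% and 12.9% in replicates 1, 2 and 3. The 24 counts of Il4 were assigned to other entries in each library: Il4-201 took 68.7% in replicate 1 and 0 in the others, and Il4-203 took 0%, 60.6% and 100% in replicates 1, 2 and 3. The retained-intron entry of Mif, Mif-202, took 2.80%, 5.33% and 6.57%, and that of Ltb 2.61% ± 0.518. For Ifng, the retained-intron entry Ifng-202 was at 0 in replicates 1 and 2 and at 0.93 TPM, 23.3% of the gene, in replicate 3. That rested on 4.39 estimated counts, 7.05% of the gene's counts there, and shortened the effective length from 1108 to 916 bases. The second quantification had Ifng-202 at 0 in all libraries. Gm49751, a gene model on the same strand within Ifng, was at 0.52 ± 0.010 TPM and Adad1, which overlaps the Il2 gene on the other strand, at 0. The miRNA genes Mir6973a and Mir6974, inside Ltb and Lta, were listed at 0.

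No member stood out for its spread between the libraries. With edgeR's quasi-likelihood fit, a test of each gene's spread against genes of like abundance called 76 of 13332 genes (0.57%) at a Benjamini-Hochberg adjusted p under 0.05. Of the 8 members that passed the count filter, 0 were called, and 0 had an unadjusted p under 0.05, against 5.75% of all genes tested. DESeq2's marking of outlying dispersion also took 0 of them, against 0.93% of all genes. Il2 and Il4 were too low to be tested. The unadjusted p-values of the 8 ran from 0.108 for Ifng to 0.940 for Ltb, with a median of 0.396 against 0.501 over all genes. In the second quantification 0 of 8 were called, against 0.653% of all genes, and 1 of 8, Ifng, had an unadjusted p under 0.05, against 5.77% of all genes. The adjusted p of Ifng by edgeR was 0.699 there, 0.970 in the first quantification and 0.998 when replicate 3 was left out.

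Spread and depth were set side by side for each member. The coefficient of variation of TPM was 4.33% for Ltb, 1.66% for Mif, 1.56% for Flt3l and 1.78% for Il16, where counting alone would give 1.65%, 3.79%, 2.66% and 1.62%. For Tnf, Lta and Ifng it was 13.7%, 14.3% and 17.5%, where counting would give 7.82%, 8.83% and 10.7%. Tested genes with 50 to 200 counts, as these 3 had, showed a median of 15%. Csf1, with 33.7% where counting would give 9.84%, was the most variable tested member in TPM, and its edgeR test on counts gave an adjusted p of 0.996. The libraries held between 14.99 and 16.88 M estimated gene counts.

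**Figure D4:**
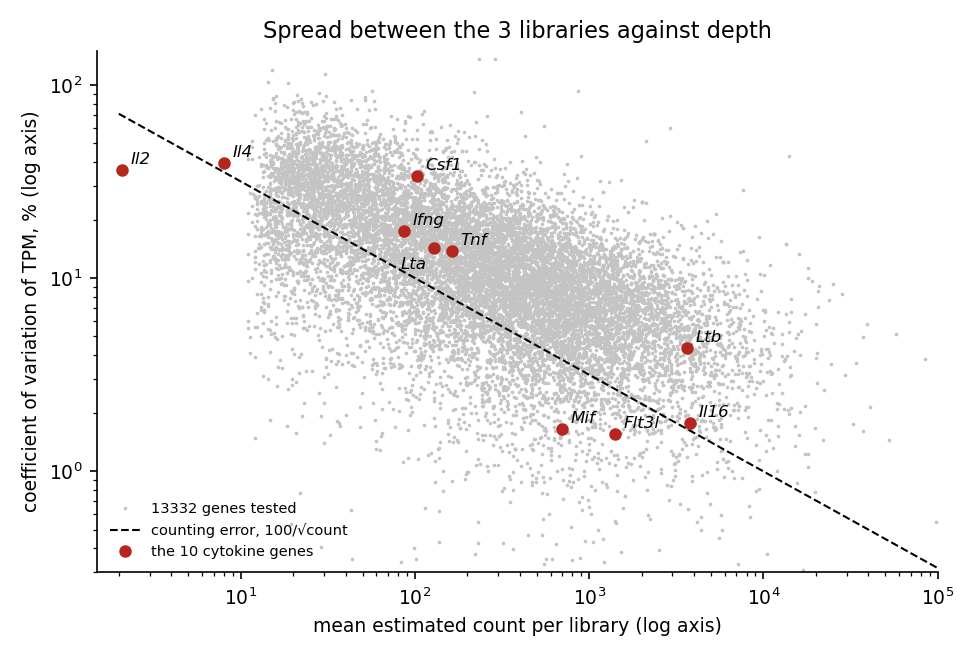
Coefficient of variation of TPM over the 3 libraries (%) against the mean estimated count, both on log axes, for 13332 tested genes (grey) and the 10 cytokine genes (red; Il2 and Il4 were not tested), with the dashed line showing counting error alone. Mif, Flt3l and Il16 lie at or below 1.78%, and Csf1 lies highest of the tested members at 33.7%.

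The receptors for these cytokines differed widely in level. Of 20 listed receptor genes, 15 were at 1 TPM or more in all libraries, against 44.7% of all protein-coding genes. The median over the list was 17.2 TPM. The highest were Il2rg, the common gamma chain used by interleukins 2 and 4, at 221 ± 10.9 TPM, Ifngr1, the ligand-binding chain for interferon gamma, at 96.6 ± 12.9 TPM, and Cd4, a receptor for interleukin 16, at 83.0 ± 0.532 TPM. Of 16 receptors tested, 1 was called for spread, against 0.57% of all genes, and 7 had an unadjusted p under 0.05, against 5.75%. It was Cd74, the invariant chain of antigen-presenting cells and a receptor for Mif, with 58.8, 65.7 and 38.3 TPM (edgeR adjusted p = 0.023). Replicate 2 was highest and replicate 3 lowest for Cd74, the order of the summed B-cell markers, and their part in its level was not tested.

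The receptors of Ltb and Flt3l were low. Ltbr, the receptor of the Ltb heterotrimer, was at 0.73, 0.30 and 0.74 TPM, and Flt3, the receptor of the Flt3l product, at 0.49, 0.60 and 0.46 TPM. These 2 were chosen after their values were seen, as the direct receptors of Ltb and Flt3l. Flt3 was also 1 of the 8 dendritic cell markers, of which 2 reached 1 TPM in all libraries.

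Enzymes that process the cytokines were present. Of 8 listed processing and binding partners, 7 were at 1 TPM or more in all libraries, against 44.7% of all protein-coding genes. Of the 8, 0 were called for spread, against 0.57% of all genes tested. The highest were the sheddases Adam10 (23.9 ± 2.20 TPM) and Adam17 (23.3 ± 0.578 TPM), the latter known to release tumour necrosis factor from the membrane, and the proprotein convertase Furin (22.8 ± 2.17 TPM). Most other cytokine genes were at or near 0 TPM. Of 63 listed, 9 were at 1 TPM or more in all libraries, against 44.7% of all protein-coding genes. In every library 24 were at 0, and the median of the 63 was 0.047 TPM. The highest were Tgfb1, an immune-suppressive factor, at 48.8 ± 2.20 TPM, Cd40lg, the T-cell help signal to B cells, at 27.0 ± 1.95 TPM, and Tnfsf8, the ligand of CD30, at 6.34 ± 0.822 TPM. Of the 10 of these 63 that were tested, 0 were called for spread, against 0.57% of all genes tested. All 63 lay below the 4 high members, Tgfb1 being the nearest.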

How the data were processed

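Per the file headers, the authors deposited estimated counts, TPM and FPKM per gene and transcript (the first quantification), and a second transcript table with estimated counts and TPM, summed here per gene. The READMEs name mm10 and GENCODE M21. Which aligner and quantifiers they used is not given in the sources used here. Reads were not split by parental allele. Length minus effective length was 100 bases in the first tables and 267 to 289 in the second. The members and lists were chosen with earlier results of these data known. Named genes are all members, the 3 highest and the called genes of each list, markers at 0, nearest and overlapping genes and Mif pseudogenes.

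Spread was tested in R 4.3.3 with edgeR 4.0.16 on rounded counts (intercept only, filterByExpr, TMM, robust, Benjamini-Hochberg 0.05), and DESeq2 1.42.0 was an alternative. Entries named only by a number held 3.29 to 8.39 counts per library and were left out, as were 97 other entries without a mouse gene identifier. All entries together held 16.93, 15.04 and 16.25 M counts in replicates 1, 2 and 3, against 16.88, 14.99 and 16.20 M in genes. On simulated data (spread between the 3 libraries, 13332 genes), 95% of 2-fold and 100% of 4-fold changes were recovered, with 5 false of 200 calls. Changes were planted only in genes above a minimum mean count, and every gene was simulated with the same dispersion. The recovery therefore may not carry over to genes with fewer counts or more spread. Order was tested by sign-flip permutation on log2(TPM + 1). An observed 0 allows a true mean of 3 counts (1.78e-05% to 2.00e-05% of a library). Tried as alternatives were FPKM, posterior mean TPM, the second quantification, rescaling, other thresholds, pseudocounts and filters, and each replicate left out.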

Additional observations from a re-analysis of the deposited data

How the results depend on the processing

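The count of members at 1 TPM or more, the count of ordered neighbours, the count called for spread, and the Ltb to Lta difference kept their direction and stayed within 1.5 times under every alternative run. The called count stayed at 0. The ordered neighbours were 7 of 9 in the second quantification and 8 with posterior mean TPM. The Tnf to Lta difference reversed to −0.13 ± 0.12 in the second quantification, and the cause was not tested. The share of Il16 in Il16-203 moved from 82.1% to 80.7% in the second quantification, to 84.6% by counts and to 99.5% among coding entries, where by construction the retained intron is left out. The share of Flt3l in Flt3l-213 moved from 16.4% to 20.4% in the second quantification and to 38.3% by counts, where long entries weigh more, and it has no value among coding entries. Of the levels of the 10 genes, 8 moved by more than 1 SD in the second quantification, Il4 and Il2 by over 1.5 times. All 10 were higher there, as were all T-cell markers but Trac. The share of all genes that moved was not counted, so the shift is not shown to be particular to the members. Depth limits Il2 and Il4 most. No paired analysis was possible because the libraries form 1 group, so that no samples could be paired across groups; differences between genes were taken within each library.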
